A study of Mus musculus with 4 samples.

Results

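RNA helicases and the machineries that shorten, decap and degrade mRNA were followed in mouse embryonic fibroblasts after knockdown of eIF1A. The set was defined by gene symbol, but it was chosen with earlier results of these data known, so its shares below are descriptive only. It held DEAD-box (Ddx) and DEAH-box (Dhx) helicases and subunits of the CCR4-NOT and PAN2-PAN3 deadenylases. It also held the RNA exosome, decapping and 5′ to 3′ decay enzymes, nonsense-mediated decay factors, and RNA-binding or small RNA silencing proteins that direct decay. Of 4878 genes in the table, 75 were members (77 rows matched the name pattern, and Dhx58 and Zfp367 were left out by the definition). Other genes of these families were not analysed here. The cells were fibroblasts at passages 5 to 8, of a strain the labels do not give, transfected with Lipofectamine RNAimax and either a negative control siRNA (Si-Negative control, 2 libraries) or an siRNA against eIF1A (Si-eIF1A (X+18), 2 libraries). eIF1A takes part in translation initiation, in scanning and start codon choice, and the comparison asks which mRNA levels differ when it is depleted.

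DEAD-box and DEAH-box proteins use ATP to unwind or remodel RNA and act at each stage of RNA life, from ribosome assembly in the nucleolus to splicing, export, translation and decay. Bulk mRNA decay usually begins with removal of the poly(A) tail by deadenylases, after which the message is either decapped and digested from its 5′ end or digested from its 3′ end by the exosome. Nonsense-mediated decay removes mRNAs on which a ribosome stops too early, and marks them through the helicase UPF1.

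Bulk MARS-seq, a method that reads polyadenylated RNA near its 3′ end, gave 2152331 to 2595625 reads per library over the genes of the table. Values are the authors' normalised counts, 1 read being worth 0.679 to 0.984 of them. Log2 values of the 2 libraries of a group correlated at 0.972 in controls and 0.977 in knockdowns, respectively. The labels do not say whether they came from separate cultures, and a p-value here therefore reflects only how far these samples vary, possibly for technical reasons. Eif1a and Eif1ax were not analysed here, and the knockdown itself was therefore not checked. Of 12 fibroblast markers listed, 4 were in the table (Vim, S100a4, Fn1 and Sparc), with a summed level of 25807 to 28574 in controls and 14385 to 15980 in knockdowns. The sum does not show which of the 4 genes differ. Normalised totals over all genes were also lower in knockdowns, at 1737440 and 1597710 against 2148300 and 2106580 in controls. The other fibroblast markers, Col1a1 and Pdgfra among them, were not analysed here, nor were the 6 epithelial, 5 endothelial and 7 leukocyte markers listed. In such bulk RNA fewer cells of a type and less RNA per cell cannot be told apart, and the part of the marker difference in the results below was not tested.

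Most helicase and decay genes did not pass the test, and those that did were nearly all higher in knockdown cells. Of the 75 members, 69 had a mean value of at least 5 over the 4 libraries and were tested. In knockdown libraries 17 were higher (24.6% of those tested, against 15.9% of all 4605 genes tested) and 2 were lower (2.90%, against 21.6%), while 50 did not pass. The test was limma on log2(normalised count + 1) with Benjamini-Hochberg adjustment over all 4605 genes and a threshold of 0.05, and all fold changes below are on that scale with n = 2 libraries per group. Values after ± are standard errors, and paired values are given for controls 1 and 2 and then, after "against", for knockdowns 1 and 2. The median log2 fold change was 0.46 over the tested members and −0.0091 over all genes tested. The 2 groups of libraries did not overlap in 42 of the 69 members (60.9%) and in 67.8% of all genes tested. With totals made equal across libraries, where the median of all genes moved to 0.34, the median of the members was 0.81, with 29 members higher and 1 lower against 1300 and 603 of all genes. Without knockdown replicate 2 the median was 0.24, 8 members were higher (438 of all genes) and 3 were lower.

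**Figure D1:**
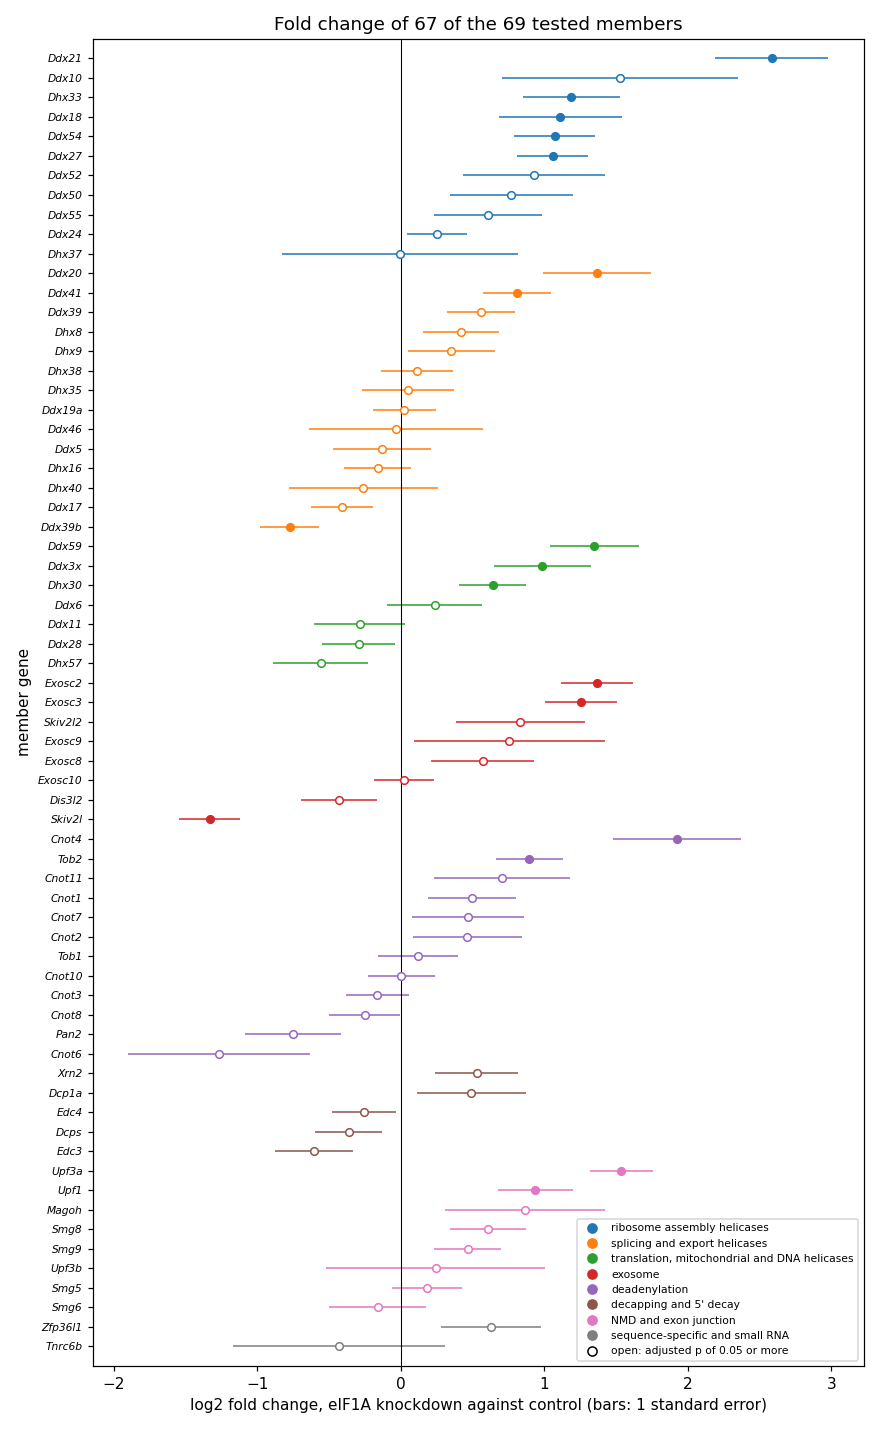
Log2 fold change of 67 of the 69 tested members (x axis, knockdown against control), 1 row per gene, coloured by role, with bars of 1 standard error; filled points passed the threshold (adjusted p under 0.05) and open points did not. The 16 filled points right of 0 occur among the helicases, exosome, deadenylation and nonsense-mediated decay genes, and the 2 filled points left of 0 are Skiv2l and Ddx39b.

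**Figure D2:**
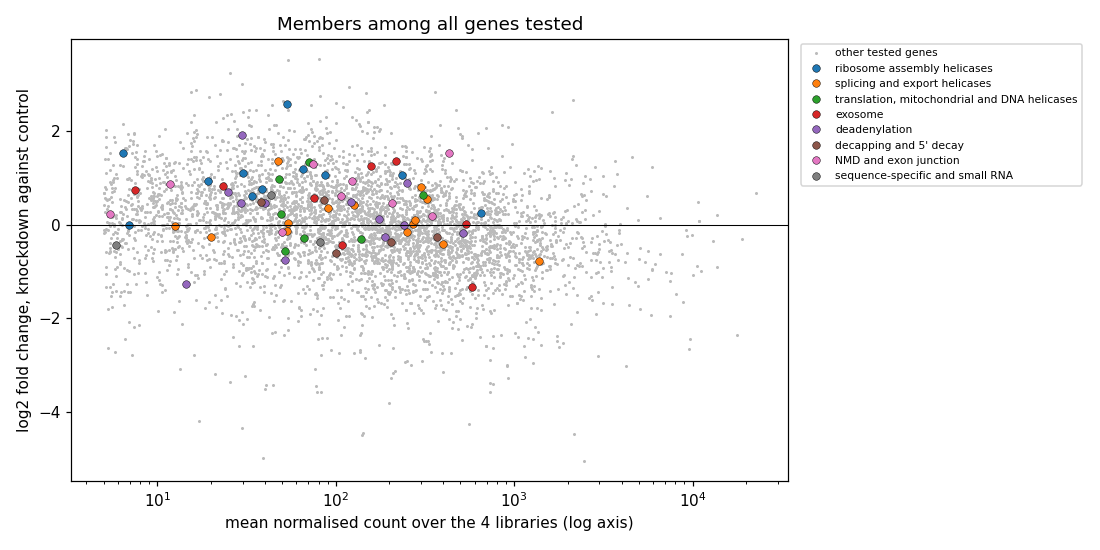
Log2 fold change (y axis) against mean normalised count over the 4 libraries (log x axis) of the 4605 genes tested, with the 69 members coloured by role. The members span −1.33 to 2.58 on the y axis, inside the spread of the other genes.

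Transcripts of several nucleolar helicases that help assemble ribosomes were higher in knockdown cells. Of 11 members of this role, all tested, 5 rose (45.5%, against 15.9% of all genes tested) and none fell (against 21.6%). The log2 fold changes of the 11 had a median of 1.06, or 0.79 with the GC trend removed and 0.82 without knockdown replicate 2, when only 2 of them were called. Of those tested, 10 had a positive fold change, and Dhx37 lay at −0.0045.

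Ddx21, a nucleolar helicase that acts in ribosomal RNA transcription and processing, had the largest rise of all members. Its normalised counts were 15.7 and 12.2 in controls 1 and 2 and 63.8 and 122 in knockdowns 1 and 2. Both knockdown libraries lay far above both controls, and knockdown 2 was well above knockdown 1. The difference passed the test (log2 fold change 2.58 ± 0.395, adjusted p = 5.28e-05), and the rise ran from 4.36-fold to 8.25-fold with each library left out in turn. The gene lies on mm10 chromosome 10, 62580251 to 62602281, minus strand.

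Ddx54 and Ddx27, nucleolar helicases, also rose. Ddx54 had 61.0 and 51.1 normalised counts in controls and 119 and 118 in knockdowns, a pair of knockdown values much closer together than the gap to the controls (2.10-fold, log2 fold change 1.07 ± 0.284, adjusted p = 0.00589). Exons of Cfap73 run opposite its 3′ end. For Ddx27 the controls were at 145 and 156 and the knockdowns at 257 and 384 (2.08-fold, log2 fold change 1.06 ± 0.248, adjusted p = 0.00241). Knockdown 2 was the higher library, and without it the call was lost (adjusted p = 0.0851, in a range of 4.89e-06 to 0.0851 over all other settings).

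Dhx33, a DEAH-box helicase linked to ribosomal RNA synthesis, went from 46.3 and 32.5 in controls to 69.4 and 115 in knockdowns (2.28-fold, log2 fold change 1.19 ± 0.339, adjusted p = 0.00961). Here too knockdown 2 stood highest, and the call was lost without it and in limma without its mean-variance trend (adjusted p = 0.203 and 0.0507, range 2.61e-04 to 0.203). Ddx18, another nucleolar helicase, had 25.6 and 12.99 in controls and 47.6 and 34.6 in knockdowns and passed narrowly (adjusted p = 0.0486). Its call was lost in 9 of 17 other settings (range 0.00662 to 0.296), and processed pseudogenes carry near-identical copies of its 3′ end, so its counts are uncertain.

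The 6 members of this role that did not pass had log2 fold changes of −0.0045 (Dhx37) to 1.53 (Ddx10). Ddx10, a helicase of small subunit assembly, had 6 and 1 reads in controls and 9 and 17 in knockdowns, and the ratio of its summed reads, scaled to the libraries, was 3.08 (95% counting interval 1.30 to 8.41). Dhx37, which acts with the U3 snoRNA, had as few as 3 reads in knockdown 2 and a ratio of 1.18 (95% counting interval 0.569 to 2.54). These Clopper-Pearson intervals cover counting error only. Ddx24 was the deepest of the role, at 588 and 595 in controls and 715 and 694 in knockdowns. Its groups did not overlap, yet the difference of 0.25 did not pass (adjusted p = 0.368). Ddx52, Ddx50 and Ddx55 had differences of 0.93, 0.77 and 0.61.

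**Figure D3:**
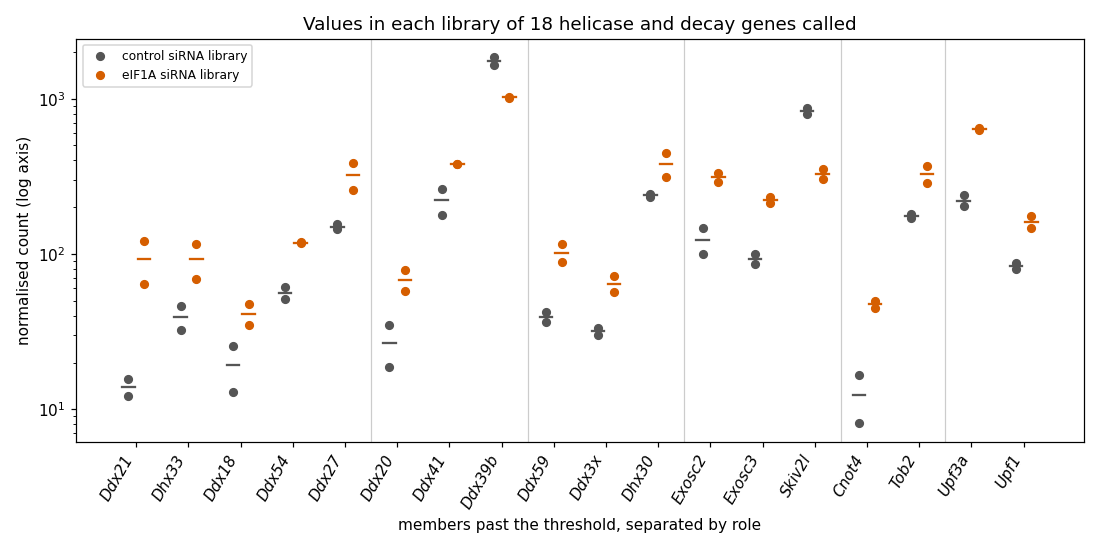
Normalised counts (log y axis) of 18 of the 19 members past the threshold, each dot being 1 library (grey, control; orange, knockdown) and dashes marking the means; vertical lines part the roles. Knockdown dots are above the control dots in 16 genes and below them in Ddx39b and Skiv2l, with no overlap, as in 67.8% of all genes tested.

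Since 17 members rose, the 250 bases before the RefSeq start sites (GRCm38.p6) were searched for CACGTG, the palindromic E-box bound by MYC and related factors, and for TGATGNAA, the core of the amino acid response element, on both strands. Promoter entries were found for 63 members, 16 of them called higher. The E-box occurred in 6 of the 63 members (9.52%) and in 6.86% of all 27025 genes with an entry. The response element occurred in none of the 63 and in 3.91% of all genes. Of the 6 members with an E-box, Dhx33 and Cnot4 were called higher, and Ddx5, Dhx35, Dhx40 and Tnrc6b did not pass. The sequences below are those of the 2 risers with a match, with the E-box in capitals, and of Ddx21, the largest riser, which has neither motif in this window. They read 5′ to 3′ on the gene's strand and end at the base before the start site, at chr11:71004433-71004682 (minus strand), chr6:35133738-35133987 (minus strand) and chr10:62602299-62602548 (minus strand).
Dhx33: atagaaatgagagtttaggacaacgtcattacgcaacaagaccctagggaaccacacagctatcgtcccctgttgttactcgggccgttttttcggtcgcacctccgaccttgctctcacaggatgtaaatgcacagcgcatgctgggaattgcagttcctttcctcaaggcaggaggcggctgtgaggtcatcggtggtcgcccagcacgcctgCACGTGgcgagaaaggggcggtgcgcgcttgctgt
Cnot4: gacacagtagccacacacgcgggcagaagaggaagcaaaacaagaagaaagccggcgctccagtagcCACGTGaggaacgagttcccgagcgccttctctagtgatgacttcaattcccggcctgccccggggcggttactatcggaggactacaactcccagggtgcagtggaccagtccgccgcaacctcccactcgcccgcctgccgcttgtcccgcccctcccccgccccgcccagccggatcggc
Ddx21: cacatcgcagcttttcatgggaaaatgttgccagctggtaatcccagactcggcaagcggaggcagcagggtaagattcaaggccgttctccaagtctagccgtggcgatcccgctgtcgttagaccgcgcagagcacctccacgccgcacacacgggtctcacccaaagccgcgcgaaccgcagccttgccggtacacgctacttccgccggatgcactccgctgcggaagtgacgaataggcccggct
The first base of the match lies 35 bases before the start site in Dhx33 and 183 bases before it in Cnot4. A match of letters is a description of the sequence only.

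Helicases of splicing, transcription and mRNA export had no common direction. Of 15 members 14 were tested, of which 2 rose (14.3%, near the 15.9% of all genes tested) and 1 fell (7.14%, against 21.6%). The median of the 14 was 0.037 and changed sign without control replicate 2 (−0.047).

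The member that fell was Ddx39b, which encodes UAP56, a helicase of spliceosome assembly and of the TREX export complex, at mm10 chromosome 17, 35241746 to 35253707, plus strand. It had 1850 and 1646 normalised counts in controls and 1008 and 1030 in knockdowns. Within each group the values were close, and the groups stood well apart, a 1.71-fold fall (log2 fold change −0.78 ± 0.208, adjusted p = 0.00639). With equal totals the call was lost (adjusted p = 0.102), as it was under quantile normalisation (0.146), without the trend (0.0553) and with a trend on GC content removed (0.0922), in a range of 6.76e-04 to 0.146. Its close relative Ddx39 stood at 221 and 303 in controls and 419 and 348 in knockdowns, on the opposite side and short of the threshold (adjusted p = 0.0676). The difference between these relatives was not tested, and a processed pseudogene matches the 3′ end of Ddx39.

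Ddx20, which encodes gemin3 of the SMN complex that assembles spliceosomal particles, rose 2.58-fold, from 18.7 and 34.9 in controls to 58.1 and 78.8 in knockdowns (log2 fold change 1.37 ± 0.377, adjusted p = 0.00755). Ddx41, a helicase of the spliceosome, rose 1.75-fold, from 179 and 263 to 382 and 379.7 (log2 fold change 0.81 ± 0.238, adjusted p = 0.0116). Control 1 was the lower control in both genes, and without it neither was called (adjusted p = 0.0539 and 0.108). The calls were also lost without knockdown replicate 2 (0.0923 and 0.0505), that of Ddx20 with the GC trend removed (0.0722), and that of Ddx41 without the trend of limma (0.0786), over ranges of 1.26e-04 to 0.0923 and 6.38e-05 to 0.108.

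The other tested members of this role lay between −0.41 (Ddx17) and 0.56 (Ddx39). Ddx5 and Ddx17 are paralogous coregulators of transcription and splicing. Ddx5 had 57.1 and 52.8 in controls and 38.7 and 64.5 in knockdowns, overlapping. Ddx17 had 429 and 482 against 372 and 314, lower in both knockdowns (adjusted p = 0.152). The spliceosomal DEAH-box members Dhx8, Dhx16, Dhx35 and Dhx38 had differences of 0.42, −0.16, 0.048 and 0.11, none of which passed. Differences of Dhx9, Ddx19a, Ddx46 and Dhx40 were 0.35, 0.025, −0.035 and −0.26. Ddx23, a helicase of spliceosome activation, was under the filter with 4 and 1 reads in controls and 6 and 6 in knockdowns, a ratio of 1.99 (95% counting interval 0.653 to 7.21).

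Among helicases of translation, RNA granules, mitochondria and DNA, 3 of 7 rose (42.9%, against 15.9% of all genes tested) and none fell (against 21.6%). The median of 0.24 has no firm size, being 0.055 without knockdown replicate 2, 0.036 under quantile normalisation, 0.061 with the GC trend removed and 0.58 at equal totals. Ddx59, a helicase linked to ciliary signalling, had 36.4 and 42.2 in controls and 115 and 89.0 in knockdowns (2.55-fold, log2 fold change 1.35 ± 0.309, adjusted p = 0.00204). Ddx3x, which helps ribosomes through structured leader sequences, had 33.5 and 30.0 against 56.5 and 72.0 (1.98-fold, log2 fold change 0.99 ± 0.340, adjusted p = 0.0285). Dhx30, which acts in assembly of the mitochondrial ribosome, had 244 and 234 against 312 and 445 (1.56-fold, log2 fold change 0.64 ± 0.234, adjusted p = 0.0382).

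Groups did not overlap in any of these 3 called genes, as in 67.8% of all genes tested. Ddx59 was called in all 17 other settings. Ddx3x was not called without control replicate 2 or either knockdown replicate (adjusted p = 0.0584, 0.0656 and 0.247), nor in 3 more settings, over a range of 0.00307 to 0.297. Dhx30 was not called without control replicate 2 (0.0565) or knockdown replicate 2 (0.425), nor in 2 more settings, over a range of 5.56e-04 to 0.425, and with the replicate number as a block only Ddx59 of this role was called (0.0512 for Ddx3x and 0.0518 for Dhx30). Ddx6, the decapping activator of P-bodies, had 42.3 and 47.9 in controls and 46.8 and 60.5 in knockdowns, with overlapping groups (adjusted p = 0.614). Ddx11, a DNA helicase of sister chromatid cohesion, Ddx28, a mitochondrial helicase, and Dhx57 had differences of −0.29, −0.29 and −0.56 and did not pass.

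The exosome genes held opposite movements. The median of the 8 members, all tested, was 0.66, but 0.33 with the GC trend removed and 0.30 without control replicate 1. Of them, 2 subunits of the exosome rose (25%, against 15.9% of all genes tested). The SKI helicase gene Skiv2l fell (12.5%, against 21.6%), and 5 did not pass. These 3 calls were kept in all 17 other settings.

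Exosc2 and Exosc3 encode RRP4 and RRP40, the RNA-binding cap subunits of the exosome. Exosc2 (mm10 chromosome 2, 31670715 to 31681349, plus strand) had 99.4 and 146 in controls and 292 and 333 in knockdowns (2.57-fold, log2 fold change 1.36 ± 0.251, adjusted p = 3.18e-04). Exosc3 (mm10 chromosome 4, 45316613 to 45342732, minus strand) had 85.6 and 99.8 against 232 and 213 (2.39-fold, log2 fold change 1.26 ± 0.250, adjusted p = 6.26e-04). In both genes the lower knockdown value was well above the higher control. With a library left out the rises ran from 2.13-fold to 3.12-fold and from 2.21-fold to 2.58-fold.

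Skiv2l, the helicase of the SKI complex that feeds mRNA into the cytoplasmic exosome, had 868 and 793 normalised counts in controls and 354 and 305 in knockdowns. Both knockdown values were far below the lower control, a 2.52-fold fall (log2 fold change −1.33 ± 0.213, adjusted p = 8.31e-05, range of adjusted p 3.09e-09 to 0.0156). The log2 fold change was smaller with the GC trend removed (−0.79) and at equal totals (−0.98). The gene lies at mm10 chromosome 17, 34839228 to 34850210, minus strand, where exons of Dxo run on the opposite strand within its last 1000 bases. Skiv2l2, its nuclear relative MTR4, had 13.8 and 18.7 in controls and 22.6 and 38.0 in knockdowns, a difference of 0.83 that did not pass (adjusted p = 0.159).

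Exosc10, the nuclear 3′ exonuclease RRP6, was the subunit with most reads, at 515 and 546 in controls and 526 and 550.2 in knockdowns (log2 difference 0.02 ± 0.210, overlapping). The ring subunits Exosc8 and Exosc9 had differences of 0.57 and 0.75 and did not pass. Exosc9 had only 5 and 7 reads in controls and 14 and 12 in knockdowns, and a difference of that size was not detectable at this depth. Dis3l2, which degrades uridylated RNA without the exosome, had 122 and 128 against 96.9 and 88.3, lower in both knockdowns without passing (adjusted p = 0.214).

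Most deadenylation genes did not pass. Of 12 members, all tested, 2 rose (16.7%, near the 15.9% of all genes tested) and none fell (against 21.6%). The median of 0.29 has no firm size or sign, being −0.036 with the GC trend removed, 0.043 without knockdown replicate 2 and 0.64 at equal totals.

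Cnot4, a ubiquitin ligase that associates with the CCR4-NOT complex, rose 3.80-fold from a low level. It had 16.7 and 8.12 normalised counts in controls, from 17 and 10 reads, and 45.2 and 49.6 in knockdowns (log2 fold change 1.93 ± 0.445, adjusted p = 0.00218). The 2 knockdown libraries were close together, while control 1 was about double control 2, and leaving out control replicate 1 gave a 5.30-fold rise and leaving out control replicate 2 a 2.73-fold one. Tob2, an adaptor that brings deadenylases to mRNAs, had 170.3 and 180.2 in controls and 288 and 369.5 in knockdowns (1.86-fold, log2 fold change 0.89 ± 0.233, adjusted p = 0.00531). Its call was lost without knockdown replicate 2 (adjusted p = 0.105, range 2.95e-05 to 0.105). Tob1, of the same family, had 139 and 192 against 135 and 232, with overlapping groups.

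The scaffold gene Cnot1 had 134 and 72.2 in controls against 115 and 168 in knockdowns, overlapping (adjusted p = 0.223). The catalytic subunits Cnot7, Cnot8 and Cnot6 had differences of 0.47, −0.25 and −1.27, and none passed. Cnot6 had 23 and 20 reads in controls and 4 and 23 in knockdowns, so that its difference rests largely on knockdown 1. Pan2, the catalytic subunit of the other deadenylase, had 64.0 and 66.6 against 46.0 and 31.9, lower in both knockdowns. Its adjusted p was 0.0838 (range 0.0332 to 0.462), and quantile normalisation called it lower (0.0332). A crossed block, which pairs control 1 with knockdown 2 and control 2 with knockdown 1, also called it lower (0.0404). The labels give no such pairing and it was added after seeing the data, so that call is not counted as support. Cnot2, Cnot3, Cnot10 and Cnot11 had differences of 0.46, −0.16, 0.0012 and 0.70, and none passed.

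Of the decapping and 5′ to 3′ decay genes none of the 5 passed in either direction (limma), none had an unadjusted p under 0.05 except Edc3, and edgeR and DESeq2 also called none. Edc3, an enhancer of decapping, had 134 and 110.4 in controls and 80.7 and 78.1 in knockdowns (log2 fold change −0.61 ± 0.272, adjusted p = 0.0856), and exons of Clk3 lie on the opposite strand at its 3′ end. Only the crossed block, a pairing that the labels do not give, called Edc3 lower (adjusted p = 0.0460, in a range of 0.0460 to 0.507). That call is not counted as support for a fall. Dcps, the scavenger enzyme for cap remnants, had 222 and 239 against 182 and 176 (log2 fold change −0.36 ± 0.232, adjusted p = 0.237). Xrn2, the nuclear 5′ to 3′ exonuclease, had 82.7 and 59.2 against 100.1 and 103 (log2 fold change 0.53 ± 0.289, adjusted p = 0.163).

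The groups of Edc3, Dcps, Xrn2 and Edc4 did not overlap, Xrn2 with the knockdowns above and the others with them below. Groups also did not overlap in 67.8% of all genes tested. In Edc4 the groups almost met, at 353.04 in control 2 and 352.76 in knockdown 1. The median of the 5 genes was −0.25, or 0.10 at equal totals and 0.052 with the GC trend removed, so it has no firm sign. At equal totals Xrn2 was called higher (adjusted p = 0.0205, in a range of 0.0205 to 0.911). Edc4, the scaffold of decapping, and Dcp1a, a decapping activator, had differences of −0.25 and 0.49.

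Some genes of nonsense-mediated decay rose. Of 11 members 9 were tested, with 3 rising (33.3%, against 15.9% of all genes tested) and none falling (against 21.6%). Their median was 0.61, and 0.58 to 0.96 in the other settings.

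Upf3a, one of a pair of UPF3 proteins that link UPF2 to exon junctions, showed the strongest rise of this role. It had 238 and 203 normalised counts in controls and 627 and 652 in knockdowns, with each pair tight and the knockdowns more than double the higher control (2.90-fold, log2 fold change 1.54 ± 0.218, adjusted p = 2.18e-05, mm10 chromosome 8, 13785615 to 13799193, plus strand). Left-out libraries moved the rise only between 2.68-fold and 3.14-fold. Its paralogue Upf3b had 4 and 7 reads in controls and 5 and 12 in knockdowns, and a change of the size seen in Upf3a cannot be judged there (log2 fold change 0.24 ± 0.760).

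Upf1, the helicase at the centre of the pathway, had 87.6 and 79.5 in controls and 177 and 146 in knockdowns (1.91-fold, log2 fold change 0.94 ± 0.262, adjusted p = 0.00854). Exons of Cers1 and Gdf1 lie opposite its 3′ end. Upf1 lost its call without knockdown replicate 1 (adjusted p = 0.110, range 1.70e-04 to 0.110).

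Smg8 and Smg9, regulators of the SMG1 kinase, were higher in both knockdowns without passing, at 84.6 and 84.4 against 132 and 127 and at 181 and 165 against 237 and 241 (control against knockdown libraries, adjusted p = 0.0776 and 0.125). Smg5 and the endonuclease gene Smg6 had differences of 0.18 and −0.16 with overlapping groups. Magoh, of the exon junction core, had 8 and 10 reads in controls and 18 and 24 in knockdowns, short of the threshold (adjusted p = 0.241). Smg1 and Upf2 were under the filter, with 2 and 2 reads in controls and 4 and 9 in knockdowns for Smg1 and 1 and 6 reads in controls and 4 and 2 in knockdowns for Upf2. The ratios of summed reads were 2.70 (95% counting interval 0.833 to 11.3) and 0.711 (95% counting interval 0.197 to 2.47).

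Proteins that choose mRNAs for decay by sequence or by small RNA were the thinnest group in reads. Of 6 members 3 were tested, and none was called by limma or edgeR or had an unadjusted p under 0.05. DESeq2 also called none, and gave no adjusted p for Tnrc6b. Zfp36l1, which binds AU-rich elements, had 35.4 and 31.7 normalised counts against 46.8 and 58.4, higher in both knockdowns (log2 fold change 0.63 ± 0.347, adjusted p = 0.167). At equal totals it was called (adjusted p = 0.0373, in a range of 0.0373 to 0.554). Tnrc6b, an Argonaute partner, had 5 and 11 reads in controls and 5 and 8 in knockdowns (log2 fold change −0.43 ± 0.738, adjusted p = 0.688). Dicer1, Tnrc6a and Zfp36l2 had between 1 and 13 reads in each library and were not tested, with ratios of 1.33 (95% counting interval 0.383 to 5.16), 1.76 (95% counting interval 0.721 to 4.72) and 1.16 (95% counting interval 0.317 to 4.64).

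Precision followed depth. None of the 9 tested members with a mean value under 20 was called, and their standard errors were 0.492 to 0.825 on the log2 scale. Of 29 members with a mean of 20 to 100, 9 were called (standard errors 0.284 to 0.518), and of 31 at 100 or more, 10 were called (0.207 to 0.307). Even the difference of 1.53 in Ddx10 was not detectable at its depth.

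**Figure D4:**
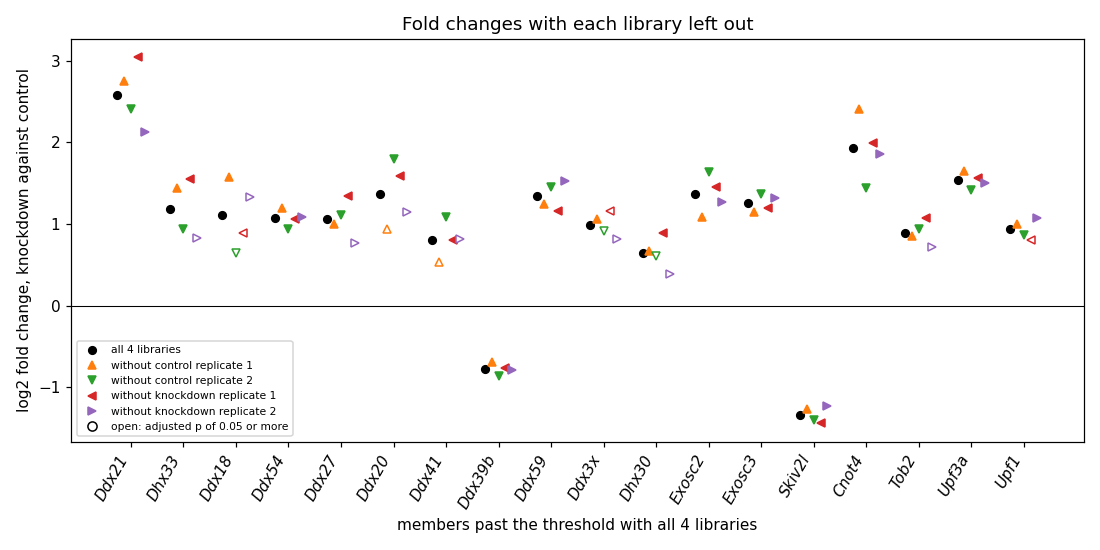
Log2 fold change (y axis) of 18 of the 19 called members with all 4 libraries (black) and with each library left out (coloured triangles); open symbols have an adjusted p of 0.05 or more. Every point keeps the side of 0 it has with all libraries, and Ddx21 ranges from 2.12 to 3.04.

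Leaving out a library moved none of the 19 folds by over 1.5 times and reversed none, but it ended the calls of 10 of them. Cnot4, Exosc2, Exosc3, Skiv2l, Upf3a, Ddx21, Ddx54 and Ddx59 were called in all 17 other settings. Fits with a library left out keep a lone library in a group, whose spread they cannot measure. Calls kept or lost in those fits are therefore weak evidence, and the folds are the safer guide. Transcripts of all genes called higher had a median GC content of 48.8% and those called lower 55.9%. Among members the medians were 50.2% for those higher, 56.5% for the 2 lower and 50.2% for those not called. With a trend on GC content removed from each library, 16 members were higher and 2 lower, the latter being Skiv2l and Cnot6.

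Partner genes of the same pathways that the symbol pattern does not take in were listed beside these roles. Of 73 symbols listed, 35 were in the table and 32 were tested. Of these 32, 12 rose and 1 fell (15.9% and 21.6% of all genes tested did so). The median of the 32 was 0.48. Poly(A) tail genes rose in 5 of 6 cases (median 1.12), against 15.9% of all genes tested. This list, like the others, was chosen with earlier results of these data known, and 6 of its 12 symbols were in the table. Its symbols Ccrn4l and Noct name the same gene. Its count is a description only. Pde12, a 2′,5′-phosphodiesterase that also trims poly(A) in mitochondria, had 7.87 and 7.30 normalised counts in controls and 35.5 and 52.3 in knockdowns (5.14-fold, log2 fold change 2.36 ± 0.467, adjusted p = 5.99e-04). Pabpc1, the main cytoplasmic poly(A)-binding protein, had 1012 and 959 against 1977 and 2429 (2.22-fold, log2 fold change 1.15 ± 0.213, adjusted p = 3.22e-04). In both genes the knockdowns stood clear of the controls. Ccrn4l, the circadian deadenylase-like protein nocturnin, and the poly(A)-binding protein genes Pabpn1 and Pabpc4 also rose. Their log2 fold changes were 1.48, 1.08 and 1.09 (adjusted p = 0.00171, 0.00102 and 0.00154). A pseudogene matches the 3′ end of Pabpc4, and exons of Gm20521 lie on the same strand within the last 1000 bases of Pabpn1. Counts of both genes are uncertain to that extent. Paip2, which binds poly(A)-binding protein, did not pass (adjusted p = 0.143).

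Of 8 LSM ring and decapping partners 3 rose and none fell, where 15.9% and 21.6% of all genes tested did so. Pnrc2, a decapping coactivator, had 42.3 and 74.7 in controls and 103 and 109 in knockdowns (adjusted p = 0.0291, range 0.00114 to 0.363). Lsm4, a subunit of the LSM rings, had 1537 and 2545 against 3913 and 2725 (adjusted p = 0.0334, range 4.98e-05 to 0.384). Both were close to the threshold. Pnrc2 was not called in 6 of 17 other settings, among them DESeq2 (adjusted p = 0.0635), limma without its trend (0.0878) and the GC trend removed (0.363). Lsm4 was not called in 3 of 17, among them limma without its trend (0.163). With a library left out the rises ran from 1.42-fold to 2.48-fold for Pnrc2 and from 1.28-fold to 2.12-fold for Lsm4.

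Etf1, the release factor that ends translation at stop codons, had 12.8 and 17.9 in controls and 29.9 and 59.8 in knockdowns (2.69-fold, adjusted p = 0.0162). Its call was lost without knockdown replicate 2 (1.91-fold) and with the GC trend removed (adjusted p = 0.103). Rbm7, of the nuclear exosome targeting complex, had 23.6 and 45.4 against 66.2 and 75.4 (adjusted p = 0.0237). Its call was lost in 7 of 17 other settings, among them DESeq2 (adjusted p = 0.0547), quantile normalisation (0.0601) and the GC trend removed (0.244). With a library left out its rise ran from 1.54-fold to 2.91-fold. Celf1, which binds GU-rich elements, had 102 and 109.6 against 161 and 199.7 (adjusted p = 0.0257, range 8.23e-04 to 0.297). It was not called in 4 of 17 other settings, among them limma without its trend (0.0690) and the GC trend removed (0.297, log2 fold change 0.34). The others left out control replicate 1 (1.63-fold) or knockdown replicate 2 (1.51-fold).

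In microRNA processing the 2 calls went opposite ways. Xpo5, the exporter of precursor microRNAs, had 84.6 and 77.9 in controls and 140.5 and 152 in knockdowns (1.79-fold higher, adjusted p = 0.0169), and without either knockdown replicate it missed the threshold (0.0681 and 0.130, range 6.06e-04 to 0.130). Prkra, a partner of Dicer and activator of the kinase PKR, had 191 and 182 against 92.8 and 87.6 (2.05-fold lower, log2 fold change −1.04 ± 0.252, adjusted p = 0.00316, range 1.30e-04 to 0.0415). Of 7 tested helicases with other names, none passed by limma or DESeq2 and 1 (Eif4a1, higher) by edgeR, and none had an unadjusted p under 0.05 except Eif4a3 and Eif4a1. Eif4a3, the DEAD-box core of the exon junction complex, had 1769 and 1822 against 1347 and 1160 (adjusted p = 0.0578), with a processed pseudogene matching its 3′ end. Eif4a1, the helicase of the cap-binding complex, had 503 and 628 against 920.2 and 727 (adjusted p = 0.0606). An exon of Gm24029 lies on its own strand within its last 1000 bases.

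**Figure D5:**
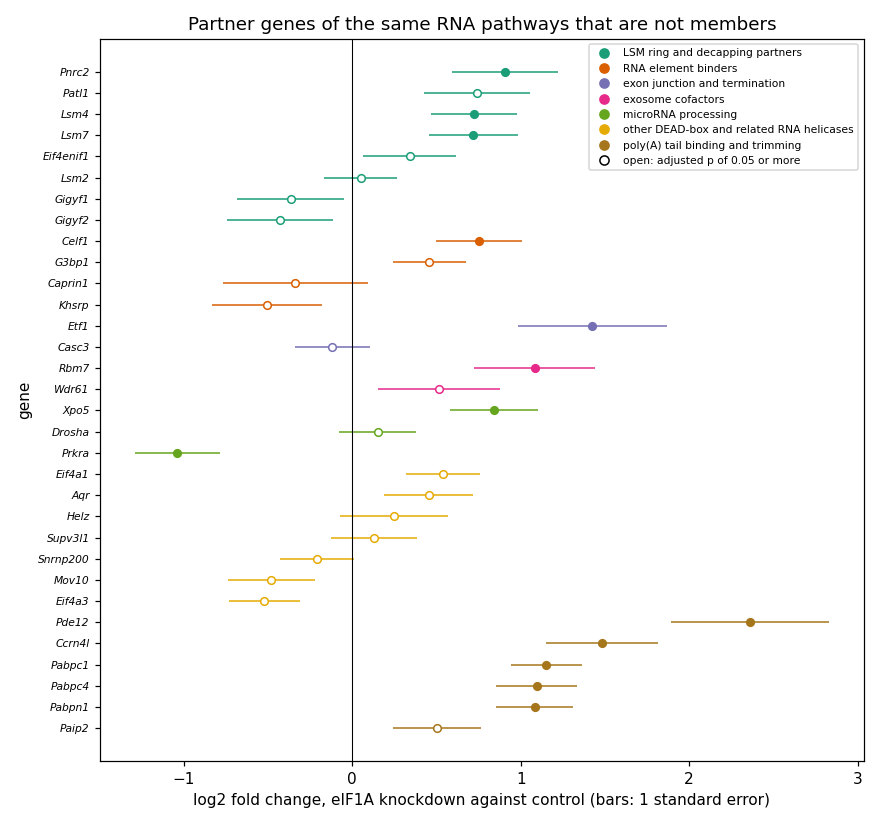
Log2 fold change (x axis, knockdown against control) of 32 tested partner genes of the same pathways, coloured by list, with bars of 1 standard error and filled points for an adjusted p under 0.05. Of the 6 poly(A) tail genes at the bottom, 5 are filled and right of 0, and Prkra is the only filled point left of 0.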

How the data were processed

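Bulk MARS-seq of polyadenylated RNA was run on 2 control and 2 eIF1A knockdown libraries of mouse embryonic fibroblasts, sequenced on a NextSeq 500 per the labels' protocols. Per the submitters' processing notes the tools were STAR, HTSeq, DESeq2, cutadapt 1.8.3 and bcl2fastq 2.17.1.14, with mm10 and no roles stated. Use of strand, collapsing by molecular identifiers and the choice of genes are each not given in the sources used here. Values deposited by the authors are a normalised count signal. All values (100% within 0.01 read) were whole multiples of 1 step per library, so reads could be recovered. No gene is at 0.

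Titles gave groups and replicates, and column names gave samples. The test was limma 3.58.1 (R 4.3.3, mean-variance trend, all 4 libraries, no block) on log2(value + 1) for 4605 genes with a mean of at least 5. It was also run on counts simulated with dispersions estimated from these same libraries, which cannot show how separate cultures would vary. edgeR 4.0.16 and DESeq2 1.42.0 were run on the recovered reads as alternatives, beside other pseudocounts (0.5 and 5), filters (none, or 20), scalings (TMM, equal totals, quantile), a replicate block, no trend and each library left out. Removal of a loess trend on transcript GC content and a crossed block were added after seeing the data. Members and lists were chosen with earlier results of these data known. Named members were, among calls with a mean of at least 20 whose groups did not overlap, the 10 largest in each direction, and the 3 of smallest p in each role. Of partner genes, up to 2 of smallest p that passed were named in each list, and Eif4a1, Eif4a3, Ccrn4l, Pabpn1, Pabpc4 and Paip2 were added after their values were seen, as were members named for their role. Of the members, 2 are counted but not reported here by name.

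All 75 members matched GENCODE M21 (mm10). Within the last 1000 bases, 11 members shared sequence with opposite-strand exons and 2 (Edc4 and Tnrc6b) with exons on their own strand, and 4 (Cnot3, Ddx18, Ddx39 and Ddx50) had pseudogene copies of their last 500 bases (at least 200 bases at 90% identity). Counts of these members are uncertain to that extent.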

Additional observations from a re-analysis of the deposited data

How the results depend on the processing

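The direction of the 26 members taken by the naming rule and 9 named partner genes held in each of 17 other settings that gave a value (Tnrc6b had none under the filter of 20 or in DESeq2). At equal totals 1300 of all genes were higher and 603 lower, with 29 members higher and 1 lower, and the members' median was 0.81, by construction of that scaling, which raised the median of all genes to 0.34. Limma without its trend called 655 genes lower and 1 member lower (Skiv2l). With the GC trend removed 643 genes were lower and the median of the members was 0.33; the cause was not tested. With a library left out, higher genes numbered 438 to 758, lower genes 715 to 987, members higher 8 to 19 and members lower 2 to 3, with a median of 0.24 (without knockdown replicate 2) to 0.49, or 0.29 without control replicate 1; the lone library of a group is then assumed to vary like the others. With the replicate number as a block, 641 genes and 14 members were higher and 918 and 2 were lower, and the calls of Ddx18, Ddx3x and Dhx30 were lost. The numbers share no stated culture or day, and differences between replicates 1 and 2 correlated at −0.129 across genes between the groups. With crossed pairs 891 and 1154 genes and 19 and 4 members were higher and lower. These pairs were added after seeing the data and no label gives them, so their added calls are not counted as support. They also set the lower ends of some ranges of adjusted p above, those of Skiv2l (3.09e-09) and Ddx39b (6.76e-04) among them. Pseudocounts, filters, TMM scaling, quantile normalisation, edgeR and DESeq2 gave 16 to 19 members higher and 2 lower. With 2 libraries per group and under 20 reads in several members, missed thresholds say little about the shallow members.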
